A study of Homo sapiens with 12 samples.

Results

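Aminoacyl-tRNA synthetases attach each amino acid to the tRNAs that read its codons, and so supply every step of translation. One set of enzymes works in the cytosol and another in mitochondria, and GARS and KARS serve both from 1 gene each. Several cytosolic enzymes, with scaffold proteins, form the multisynthetase complex, and the enzymes fall into class I and class II by the fold of their active site. The splicing of 36 such genes was followed here in HEK293A-TOA cells, a line derived from human embryonic kidney. The genes, 20 cytosolic and 16 mitochondrial, were listed by name under the older symbols of the deposited tables (AARS for AARS1, for example), and every skipped exon or retained intron event of theirs that averaged 10 or more reads in a library was taken. That gave 454 of the 115209 skipped exon events and 60 of the 10576 retained intron events in the table made without UPF1 siRNA. In the table made with UPF1 siRNA the numbers were 473 of 110136 and 46 of 9652. Both tables share 291 of the skipped exon and 21 of the retained intron events of these genes.

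The cells in all 4 groups had been exposed for 6 hr to 1 μM Thiamet-G (TG), an inhibitor of O-GlcNAcase, the enzyme that takes the sugar O-GlcNAc off proteins. They had received a non-target siRNA (siNT), 40 nM of a mix of siRNAs against the splicing factor SFSWAP (siSFSWAP), or each of these together with 30 nM siRNA against UPF1 (siNT/siUPF1 and siSFSWAP/siUPF1), and were harvested 5 days after transfection. Each group holds 3 libraries of polyA RNA that the labels call biological replicates. UPF1 is the helicase at the centre of nonsense-mediated decay, which removes mRNAs whose reading frame stops early, so that its knockdown can make such mRNAs visible. The questions were which exons and introns of these genes change when SFSWAP is depleted, and whether this depends on UPF1.

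The skipped exon events of a library held between 25938092 and 40637076 reads, where 1 read can count at several events. Reads at SFSWAP exons were 59.7% lower in siSFSWAP than in siNT and 58.9% lower in siSFSWAP/siUPF1 than in siNT/siUPF1. UPF1 reads were 70.4% lower in siNT/siUPF1 than in siNT and 65.7% lower in siSFSWAP/siUPF1 than in siSFSWAP. In each case the 3 libraries of one group lay apart from the 3 of the other, and the exact two-sided permutation p was 0.1, the smallest that 3 against 3 libraries allow. Marker genes looked up were KRT8, KRT18, VIM and PAX2 for the cell line, and PTPRC, ALB and COL1A1 for other cell types. VIM and KRT8 had reads in all libraries. The others are not given, so these reads are no check of the line's identity.

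Values below are inclusion levels, which run from 0 to 1. A level compares only both forms of 1 event. It gives the share of the form that includes the exon or keeps the intron, after each form's reads are divided by its effective length. The same exon can therefore have different levels in different events. Differences are log2 odds ratios, knockdown minus control, from a quasi-binomial fit of inclusion against skipping reads with the variance shrinkage of limma. An event was called where its p, adjusted by Benjamini-Hochberg over all events tested in the comparison, was at most 0.05, and it could be tested with at least 10 reads of each form. Levels are given in the order in which the tables list the libraries, which carry no replicate number. Exons are numbered on the MANE transcript of GENCODE 44, and predicted products were read from its start codon.

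Skipped exons of the synthetase genes changed in both directions after SFSWAP knockdown. Under TG, with UPF1 present, 25 of 161 tested events were called, where 12% of all tested events were. Inclusion rose at 12 of them, against a background of 7.76% of events called higher, and fell at 13, against 4.21% called lower. In the UPF1 knockdown background 21 of 180 tested events were called, beside 7.52% of all events, with 6 higher (background 4.05%) and 15 lower (background 3.47%). Events that share an exon share reads, and overlapping called exons merge into 13 places in each comparison, in 10 genes under TG and 11 in the UPF1 background. The comparisons share no library. At 4 places, 30.8% of each set, a call was made in both, in the same direction in each. There, exon 9 of QARS and exon 8 of TARS2 were included more, and exon 13 of LARS and exon 5 of IARS less. This overlap was not counted over all genes, so it has no background share beside it. The median log2 odds ratio over the tested events of these genes was 0.06 under TG and 0.03 in the UPF1 background, beside 0.26 and 0.07 over all events tested. The counts depended on single libraries, at 12 under TG if the siNT or the siSFSWAP library listed 1st was omitted and 14 if the siSFSWAP library listed 3rd was. In the UPF1 background they were 9, 12 and 11 without the siSFSWAP/siUPF1 library listed 1st, 2nd or 3rd and 11 without the siNT/siUPF1 library listed 1st. limma on the log2 odds, with 0.5 added to each read count, called 13 events of these genes under TG, LARS exon 13 among them and the exons of QARS, IARS and TARS2 not. It called 0 in the UPF1 background, where it called 17 over all genes.

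**Figure D1:**
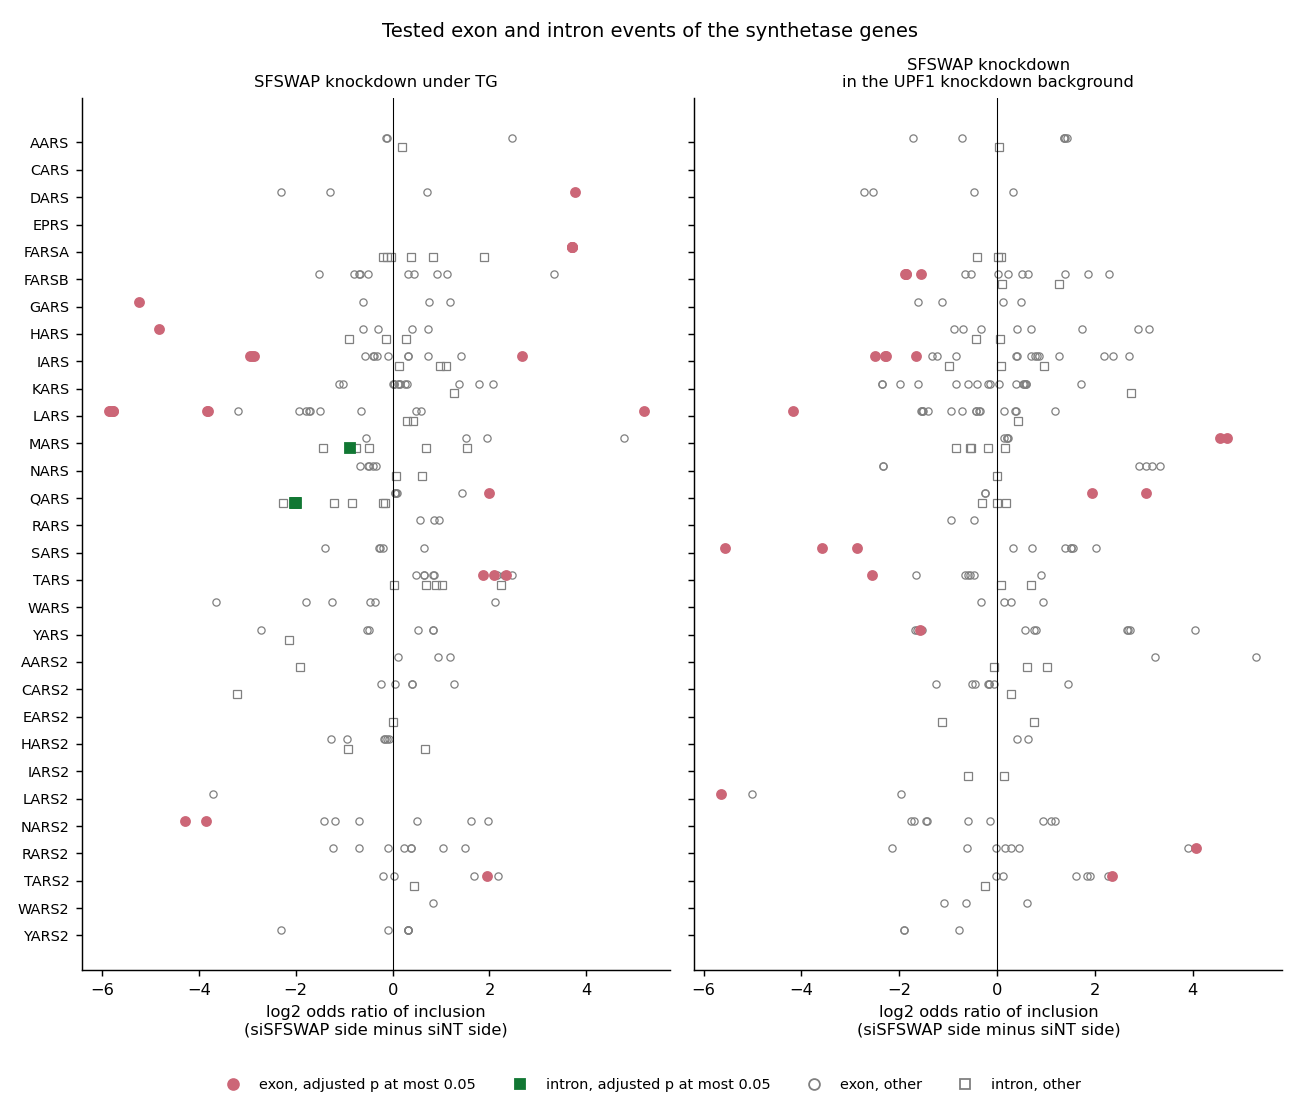
Log2 odds ratio (siSFSWAP minus siNT, horizontal axis) of every tested skipped exon and retained intron event by gene, without and with UPF1 siRNA. Circles are exons and squares introns, and called events are filled. Calls lie on both sides of 0, with LARS exon 13 at -3.82 and -4.17 and QARS exon 9 at 2.00 and 1.94.

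The sequences of 3 of the exons called in both comparisons are given below on the strand of the gene, read from the hg38 genome, with 10 bases of intron on each side. Capitals mark the exon. QARS exon 9 lies within chr3:49101610-49101715 on the minus strand, LARS exon 13 within chr5:146153164-146153237 on the minus strand and IARS exon 5 within chr9:92286526-92286628 on the minus strand.
QARS exon 9: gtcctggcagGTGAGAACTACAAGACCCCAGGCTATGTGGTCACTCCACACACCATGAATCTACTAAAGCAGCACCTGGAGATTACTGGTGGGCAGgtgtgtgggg
LARS exon 13: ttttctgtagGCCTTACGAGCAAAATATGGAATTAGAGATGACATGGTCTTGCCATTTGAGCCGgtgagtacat
IARS exon 5: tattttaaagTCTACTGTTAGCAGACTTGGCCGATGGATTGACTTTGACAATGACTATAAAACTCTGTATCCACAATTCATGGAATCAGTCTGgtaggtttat

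QARS, the class I glutaminyl-tRNA synthetase of the multisynthetase complex, gained its exon 9 after SFSWAP knockdown. The exon has 86 nt, not a multiple of 3, and without it the predicted product stops after 273 of 775 codons. Its inclusion level was 0.792, 0.909 and 0.634 in siNT and 0.956, 0.956 and 0.924 in siSFSWAP. Each siSFSWAP library lay above each siNT library, and the latter were spread far more widely. The log2 odds ratio was 2.00 (SE 0.46, adjusted p = 0.00159). With UPF1 siRNA the levels were 0.721, 0.742 and 0.913 without and 0.951, 0.935 and 0.952 with SFSWAP siRNA, again without overlap (log2 odds ratio 1.94, SE 0.50, adjusted p = 0.00339). The reads behind this were 518 inclusion and 63 skipping reads in siNT and 1809 and 55 in siSFSWAP. Skipping reads were similar in number in both groups, while inclusion reads differed. The call under TG was lost when the siNT library listed 3rd was omitted (adjusted p = 0.0851), and that in the UPF1 background without the siNT/siUPF1 library listed 1st (0.0567) or the siSFSWAP/siUPF1 library listed 3rd (0.0551).

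Exon 15 of QARS, a 93-nt exon chosen for mention after its values were seen, was called higher in the UPF1 background, at 0.926, 0.941 and 0.984 in siNT/siUPF1 and 1, 0.997 and 0.991 in siSFSWAP/siUPF1 (log2 odds ratio 3.04, SE 1.12, adjusted p = 0.0288). Under TG its adjusted p was 0.264. The call was lost without any 1 of the libraries except the siNT/siUPF1 library listed 3rd, at adjusted p of up to 0.146. Exon 23 of QARS, one of the exons with the most reads at intermediate inclusion, was not called, at 0.858, 0.908 and 0.927 in siNT and 0.916, 0.873 and 0.925 in siSFSWAP (adjusted p = 0.978). Both groups overlap there, so the exons of QARS did not move as 1.

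LARS, the leucyl-tRNA synthetase of the same complex and also a leucine sensor, lost its exon 13, with the lowest adjusted p of all events of these genes under TG. The exon has 54 nt, a multiple of 3, and its loss takes the predicted product from 1176 to 1158 codons. Inclusion was 0.994, 0.974 and 0.972 in siNT and 0.657, 0.872 and 0.733 in siSFSWAP. The groups lay far apart, and skipping reads went from 14 to 149 (log2 odds ratio -3.82, SE 0.66, adjusted p = 8.2e-09). With UPF1 siRNA it was 0.996, 0.988 and 0.992 against 0.830, 0.820 and 0.913 (log2 odds ratio -4.17, SE 0.97, adjusted p = 5.72e-06). The call held without any 1 library in both comparisons.

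A second exon of LARS, the 213-nt exon 20, was skipped in no read of siNT and in 23 reads of siSFSWAP beside 1215 inclusion reads. The 1410 inclusion reads of siNT allow the skipping form up to 0.666% on the scale of the levels. Its levels in siSFSWAP were 0.925, 0.985 and 0.923 (adjusted p = 0.00466, limma shrinkage). In the UPF1 background 7 and 15 skipping reads were counted and the adjusted p was 0.422. A 398-nt exon inserted between exons 6 and 7, named because it was called, had 0 inclusion reads in siNT and 11 in siSFSWAP. That call was lost in each of the 3 fits that could be made without 1 library, those without an siNT library, at adjusted p between 0.0756 and 0.0974.

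IARS, the isoleucyl-tRNA synthetase of the complex, included less of its exon 5, whose 83 nt shift the frame so that skipping leaves 139 of 1262 codons. Inclusion was 1, 1 and 0.976 in siNT and 0.923, 0.950 and 0.939 in siSFSWAP. No siSFSWAP library reached the lowest siNT library (log2 odds ratio -2.85, SE 0.84, adjusted p = 0.00575). With UPF1 siRNA the levels were 0.994, 0.969 and 0.989 against 0.883, 0.891 and 0.990, and the groups overlap because the siSFSWAP/siUPF1 library listed 3rd lay at the siNT/siUPF1 level (log2 odds ratio -2.27, SE 0.77, adjusted p = 0.0373). Skipping reads were few, 9 and 32 without and 14 and 35 with UPF1 siRNA. All 9 skipping reads of siNT came from the library listed 3rd, and without it the fitted log2 odds ratio was -6.46, a value set against no skipping read. Under TG, omitting the siSFSWAP library listed 1st lost the call (0.0585). That in the UPF1 background was lost without the siNT/siUPF1 library listed 1st or 3rd or the siSFSWAP/siUPF1 library listed 1st or 2nd, at adjusted p of up to 0.378.

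TARS2, the mitochondrial threonyl-tRNA synthetase, gained exon 8 in transcripts that join it to exon 10. That event, chosen for mention after its values were seen, compares exon 7 to 8 to 10 with exon 7 to 10. Inclusion was 0.535, 0.591 and 0.676 in siNT and 0.856, 0.771 and 0.943 in siSFSWAP (log2 odds ratio 1.94, SE 0.62, adjusted p = 0.0175). With UPF1 siRNA it was 0.330, 0.648 and 0.686 against 0.874, 0.861 and 0.862 (log2 odds ratio 2.35, SE 0.70, adjusted p = 0.0104). Neither comparison had overlapping groups. Each call was lost in 4 of 6 fits without 1 library, at adjusted p of up to 0.174 without the siSFSWAP library listed 3rd and 0.190 without the siNT/siUPF1 library listed 1st. The event that joins the same exon to exon 9, which has more reads, was not called, at 0.845, 0.925 and 0.862 in siNT and 0.932, 0.987 and 0.990 in siSFSWAP (adjusted p = 0.0725).

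**Figure D2:**
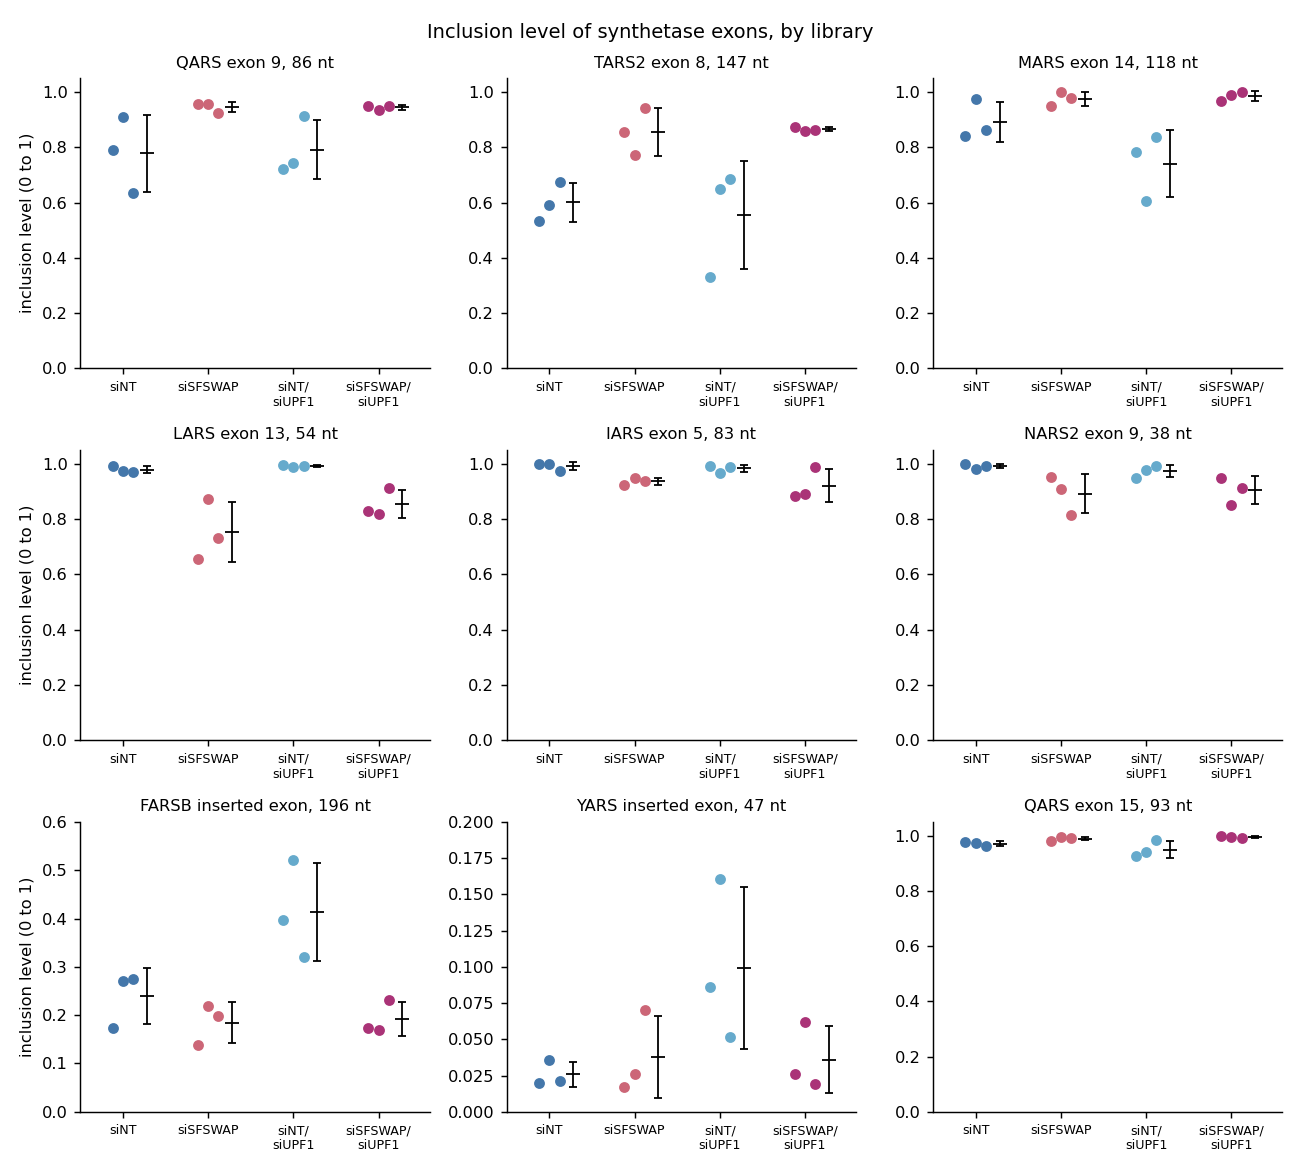
Inclusion level (vertical axis, 0 to 1) of 9 exons by group, with 1 point per library and the mean and SD as bars, n = 3. QARS exon 9 and TARS2 exon 8 lie higher and LARS exon 13 lower in both siSFSWAP groups, and for MARS exon 14 and the FARSB insert siNT/siUPF1 and siSFSWAP/siUPF1 do not overlap.

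MARS, the methionyl-tRNA synthetase of the complex, was called in the UPF1 background at exon 14. The full exon, chr12:57512236-57512353 on the plus strand (hg38), is shown next because a shorter form of 51 nt, in capitals, uses a later 3′ splice site.
MARS exon 14: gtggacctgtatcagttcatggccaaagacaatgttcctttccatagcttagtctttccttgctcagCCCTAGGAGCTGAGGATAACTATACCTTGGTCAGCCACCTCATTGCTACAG

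Inclusion of the full 118-nt exon was 0.782, 0.605 and 0.836 in siNT/siUPF1 and 0.968, 0.991 and 1 in siSFSWAP/siUPF1. The groups lay apart, and skipping reads went from 112 to 5 (log2 odds ratio 4.56, SE 1.09, adjusted p = 1.15e-06). Skipping leaves 547 of 900 predicted codons. Under TG alone siNT stood at 0.840, 0.976 and 0.861 and siSFSWAP at 0.950, 1 and 0.979, with overlap, and the event was not called (log2 odds ratio 1.95, SE 0.74, adjusted p = 0.053). The short form, whose product also ends early, after 546 codons, was included at 0.676, 0.931 and 0.717 in siNT, and siNT/siUPF1 had 0.452, 0.326 and 0.592. It is 1 of the events called for UPF1 knockdown in siNT cells (log2 odds ratio -2.25, SE 0.57, adjusted p = 0.02). All libraries of siNT/siUPF1 lay below those of siNT. The adjusted p was 0.198 if the siNT library listed 2nd was omitted and 0.251 if the siNT/siUPF1 library listed 2nd was. SFSWAP knockdown in the UPF1 background, which shares the siNT/siUPF1 libraries, gave a log2 odds ratio of 4.70 for this form (SE 1.08, adjusted p = 2.52e-06).

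NARS2, the mitochondrial asparaginyl-tRNA synthetase, included less of exon 9 under TG. The 38-nt exon, chr11:78478438-78478475 on the minus strand (hg38), follows with the 33-nt form in capitals.
NARS2 exon 9: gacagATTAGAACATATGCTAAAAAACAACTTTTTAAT

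The full exon was included at 1, 0.984 and 0.994 in siNT and at 0.954, 0.909 and 0.816 in siSFSWAP, without overlap (log2 odds ratio -3.86, SE 1.27, adjusted p = 0.00213). The 33-nt form went from 1, 0.969 and 0.991 to 0.892, 0.805 and 0.681 (log2 odds ratio -4.29, adjusted p = 0.000487). Both forms share 3 skipping reads in siNT and 34 in siSFSWAP. Skipping leaves 311 of 477 codons. Without the siSFSWAP library listed 3rd the adjusted p of the full exon was 0.0760. With UPF1 siRNA the full exon lay at 0.950, 0.980 and 0.994 against 0.951, 0.851 and 0.914, which overlap (adjusted p = 0.131).

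At FARSB, SARS and YARS the called events were exons inserted between MANE exons. Those of FARSB and YARS are shown next on the strand of the gene (hg38): the 196-nt insert of FARSB at chr2:222646801-222646996 (minus), with its first in-frame stop codon in capitals, and the 47-nt insert of YARS within chr1:32797582-32797648 (minus), with the exon in capitals and 10 bases of intron on each side.
FARSB inserted exon: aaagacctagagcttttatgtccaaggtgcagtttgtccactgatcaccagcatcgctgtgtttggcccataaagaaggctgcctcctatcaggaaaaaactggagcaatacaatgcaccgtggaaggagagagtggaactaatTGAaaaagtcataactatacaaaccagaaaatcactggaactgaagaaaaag
YARS inserted exon: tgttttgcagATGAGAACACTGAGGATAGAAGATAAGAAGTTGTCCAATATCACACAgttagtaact

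FARSB encodes the beta subunit of the cytosolic phenylalanyl-tRNA synthetase, and its insert lies between exons 2 and 3. Inclusion of the 196-nt form was 0.398, 0.521 and 0.320 in siNT/siUPF1 and 0.174, 0.169 and 0.232 in siSFSWAP/siUPF1. The groups did not overlap (log2 odds ratio -1.55, SE 0.30, adjusted p = 0.000119), and 3 shorter forms of 121, 164 and 170 nt with the same skipping reads were called too. Without UPF1 siRNA siNT stood at 0.173, 0.271 and 0.276 and siSFSWAP at 0.138, 0.219 and 0.198 (adjusted p = 0.327). UPF1 knockdown in siNT cells gave a log2 odds ratio of 1.09 (SE 0.31, adjusted p = 0.0762), which was not called, and the test of the difference between both SFSWAP effects gave an adjusted p of 0.994. With the insert the predicted product stops after 86 of 589 codons.

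SARS, the seryl-tRNA synthetase, had 78 inclusion reads of its 117-nt insert between exons 1 and 2 in siNT/siUPF1 and 4 in siSFSWAP/siUPF1, beside 2442 and 1681 skipping reads. As inclusion levels these are 0.0148, 0.0182 and 0.00894 against 0, 0.00244 and 0.000721, all low and without overlap (log2 odds ratio -3.59, SE 1.14, adjusted p = 0.000813). Under TG siNT stood at 0.00818, 0.00708 and 0.00991 and siSFSWAP at 0.00178, 0.00250 and 0.00526 (adjusted p = 0.10). Forms of 121 and 250 nt were called with it in the UPF1 background, and lost in 4 and 5 of 6 fits without 1 library, while the 117-nt form was called in all 6.

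The insert of YARS, the tyrosyl-tRNA synthetase, is the other event called for UPF1 knockdown in siNT cells. Its level was 0.0201, 0.0357 and 0.0216 with siNT, against 0.0858, 0.161 and 0.0518 with siNT/siUPF1, where every library lay above siNT (log2 odds ratio 2.07, SE 0.46, adjusted p = 0.00359). It was 0.0263, 0.0623 and 0.0193 in siSFSWAP/siUPF1. This was called lower than in siNT/siUPF1, whose libraries this comparison shares, but the groups overlap (log2 odds ratio -1.58, SE 0.43, adjusted p = 0.00465). In siSFSWAP it was 0.0174, 0.0258 and 0.0703 (adjusted p = 0.535 against siNT). With the insert the predicted product stops after 225 of 528 codons. Without the siNT/siUPF1 library listed 2nd, which had the highest level, the adjusted p was 0.0753 for UPF1 knockdown and 0.174 for SFSWAP knockdown, whose log2 odds ratio was then -1.01. The latter call was also lost without the siSFSWAP/siUPF1 library listed 1st (0.0983) or 3rd (0.103).

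TARS, the cytosolic threonyl-tRNA synthetase, was called at different inserts in the comparisons. In the UPF1 background a 221-nt insert between exons 17 and 18 had 65 inclusion reads in siNT/siUPF1 and 10 in siSFSWAP/siUPF1, or levels of 0.00366, 0.0110 and 0.00559 against 0.000943, 0.00203 and 0.000333 (log2 odds ratio -2.55, SE 0.80, adjusted p = 0.00677). The groups did not overlap, and the call was lost without the siNT/siUPF1 library listed 2nd (0.132) or the siSFSWAP/siUPF1 library listed 1st (0.0674) or 3rd (0.0859). Under TG 3 forms of an insert between exons 2 and 3, of 121, 158 and 315 nt, were called higher instead, with levels under 0.01 in every library. Those calls were lost in 4, 4 and 2 of 6 fits without 1 library, at adjusted p of up to 0.137 without the siSFSWAP library listed 1st for the first of them, 0.120 without the same library for the second, and 0.101 without the siSFSWAP library listed 2nd for the longest.

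The remaining calls were of rare forms or of exons near full inclusion and are named because they were called. Under TG a 118-nt insert of DARS had 1 inclusion read in siNT and 23 in siSFSWAP, a 171-nt insert of IARS had 6 and 21, and a 193-nt insert of HARS had 17 and 0. FARSA exon 5 and 3 longer forms of it shared 22 skipping reads in siNT and 1 in siSFSWAP, and GARS exon 15 had 0 and 14. In the UPF1 background LARS2 exon 9 had 0 skipping reads in siNT/siUPF1, where 288 inclusion reads allow the skipping form up to 2.13% on the same scale, and 16 in siSFSWAP/siUPF1. RARS2 exon 17 had 33 and 1, and a 34-nt form of IARS exon 3 had 33 and 45. Each of these calls was lost without at least 1 library. The 34-nt form of IARS, called lower, was lost in all 6 such fits, at adjusted p of up to 0.272. Of the members with a tested event AARS, KARS, NARS, RARS, WARS, AARS2, CARS2, EARS2, HARS2, IARS2, WARS2 and YARS2 had none called, among them a 180-nt insert of KARS at 0.152, 0.146 and 0.165 in siNT and 0.158, 0.209 and 0.191 in siSFSWAP (adjusted p = 0.356). CARS, EPRS and FARS2 had events but none that could be tested, and MARS2, PARS2, SARS2, VARS and VARS2 had no event in the tables used here.

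By compartment, the cytosolic genes had 22 of 118 and 18 of 135 tested skipped exon events called under TG and in the UPF1 background. The mitochondrial genes had 3 of 43 and 3 of 45. The genes of the multisynthetase complex had 13 of 59 and 9 of 66, in 4 of 7 tested genes each time. Class I genes had 12 of 75 and 12 of 85 and class II genes 13 of 86 and 9 of 95. Over all genes 12% of tested events were called under TG and 7.52% in the UPF1 background, and no difference between these lists was tested.

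UPF1 knockdown called few events of these genes. In siNT cells 2 of 153 were called, beside 1.17% of all events, 1 of them higher (background 0.778%) and 1 lower (background 0.396%), which are the YARS insert and the MARS short form. Omitting the siNT/siUPF1 library listed 2nd left 0 calls, and omitting the one listed 3rd gave 8. There was 1 call without the siNT library listed 2nd and there were 4 without the one listed 3rd. In siSFSWAP cells 0 of 127 were called, beside 0.0816% of all events, with 5 at an unadjusted p under 0.05. The difference between SFSWAP effects with and without UPF1 siRNA was called at 0 of 214 events, beside 0.00771% of all, with 12 at an unadjusted p under 0.05. limma on the log2 odds called 0 of these events in each of the 3 comparisons, so that the YARS and MARS calls were lost by it, and for UPF1 knockdown in siNT cells it called 0 of the 28261 events over all genes. No event of these genes is shown to respond differently to SFSWAP knockdown with and without UPF1.

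The direction of these mostly uncalled differences was sorted by what the predicted reading frame does. An early stop was counted where the frame ends more than 50 nt before the last exon junction, the placement that nonsense-mediated decay is known to act on. For UPF1 knockdown in siNT cells, 55 of 62 events with an early stop when included had a log2 odds ratio above 0, with a median of 1.04. Of the 33 events with an early stop when skipped, 5 lay above 0 and the median was -1.24. Events with no early stop had 22 of 33 above 0 and a median of 0.40, and the median over all tested events of all genes was 0.20. The 16 events with an early stop either way, 1 of them above 0 (median -1.20), and 9 joined to exons outside the MANE transcript stand apart from these classes. In siSFSWAP cells UPF1 knockdown left 30 of 56 and 10 of 21 above 0 in the first and second of these classes, with medians of 0.05 and -0.02. SFSWAP knockdown gave medians of 0.32 and -0.35 under TG, and of -0.57 and 1.28 in the UPF1 background. The UPF1 and SFSWAP comparisons share the siNT or the siNT/siUPF1 libraries, and forms of 1 exon share reads, so that no test was made of these counts. Stop classes were assigned to events of these genes only, so the counts have no share over all genes beside them.

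**Figure D3:**
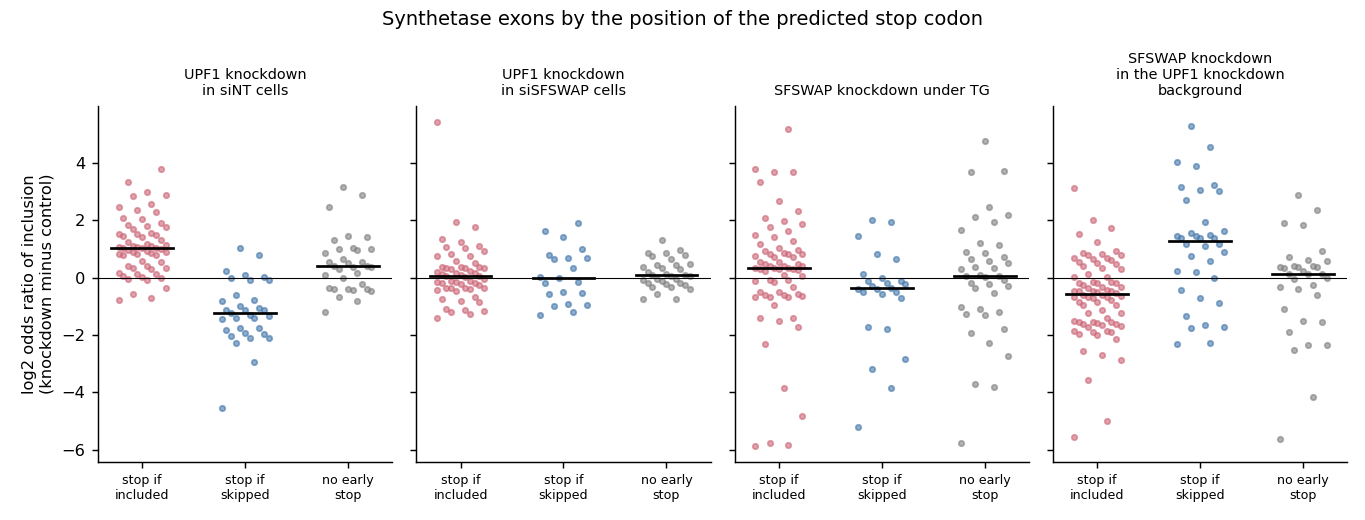
Log2 odds ratio (vertical axis) of each tested skipped exon event of the synthetase genes by predicted stop class, in the UPF1 and SFSWAP comparisons, with lines at the medians. For UPF1 knockdown in siNT cells the medians are 1.04 where inclusion brings the early stop and -1.24 where skipping does, and both lie near 0 in siSFSWAP cells.

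Of the retained introns of these genes, 3 fell after SFSWAP knockdown under TG. They were 3 of 43 tested, beside 10.4% of all introns, and all 3 were lower, beside 9.10% called lower. They are introns 20 and 21 of QARS and intron 19 of MARS. Their sequences (hg38, strand of the gene) are shown next in full with the first in-frame stop codon of the retained form in capitals, at chr3:49098481-49098599 (minus), chr3:49098259-49098352 (minus) and chr12:57515992-57516244 (plus).
QARS intron 20: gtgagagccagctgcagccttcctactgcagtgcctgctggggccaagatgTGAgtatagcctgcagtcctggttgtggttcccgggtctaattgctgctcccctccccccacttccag
QARS intron 21: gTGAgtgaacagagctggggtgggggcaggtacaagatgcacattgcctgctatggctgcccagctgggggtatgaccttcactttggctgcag
MARS intron 19: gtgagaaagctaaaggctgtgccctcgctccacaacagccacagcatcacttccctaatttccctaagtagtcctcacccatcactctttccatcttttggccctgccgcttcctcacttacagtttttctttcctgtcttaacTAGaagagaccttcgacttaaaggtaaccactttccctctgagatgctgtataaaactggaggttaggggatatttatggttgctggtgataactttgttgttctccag

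QARS intron 21, of 94 nt, was retained at 0.130, 0.0559 and 0.194 in siNT and at 0.0235, 0.0163 and 0.0483 in siSFSWAP. Every siSFSWAP library lay below every siNT library (log2 odds ratio -1.99, SE 0.52, adjusted p = 0.0108). Intron 20, of 119 nt, went from 0.0623, 0.0788 and 0.0653 to 0.0125, 0.0249 and 0.0175 (log2 odds ratio -2.01, SE 0.48, adjusted p = 0.00465). Reads of the retained form were 61 and 42 for intron 21 and 53 and 34 for intron 20, while spliced reads went from 275 to 757 and from 314 to 818. As at exon 9, the form without the early stop held more reads after knockdown, while the other form changed less in number. The call for intron 21 was lost without the siNT library listed 1st (adjusted p = 0.0634) or 3rd (0.0803) or the siSFSWAP library listed 2nd (0.0587). limma on the log2 odds called none of the 5845 introns tested over all genes, these included. Without the siNT library listed 2nd or the siSFSWAP library listed 3rd, 5 introns of these genes were called.

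MARS intron 19, of 253 nt, was retained at 0.130, 0.144 and 0.20 in siNT and at 0.0793, 0.0898 and 0.110 in siSFSWAP, with no overlap (log2 odds ratio -0.88, SE 0.20, adjusted p = 0.00314). Intron 19 of QARS went from 0.207, 0.126 and 0.254 to 0.0421, 0.0857 and 0.138 and was not called (adjusted p = 0.108), and neither was intron 15, at 0.0940, 0.112 and 0.147 against 0.0829, 0.126 and 0.113 (adjusted p = 0.873). Intron 11 of QARS was not called either (adjusted p = 0.396). It stood at 0.147, 0.0634 and 0.156 in siNT and 0.0613, 0.0577 and 0.0725 in siSFSWAP, which overlap. All 7 tested introns of QARS had a log2 odds ratio under 0, with a median of -1.21. Outside QARS 13 of 36 introns did, with a median of 0.24, and the median over all tested introns was -0.25.

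**Figure D4:**
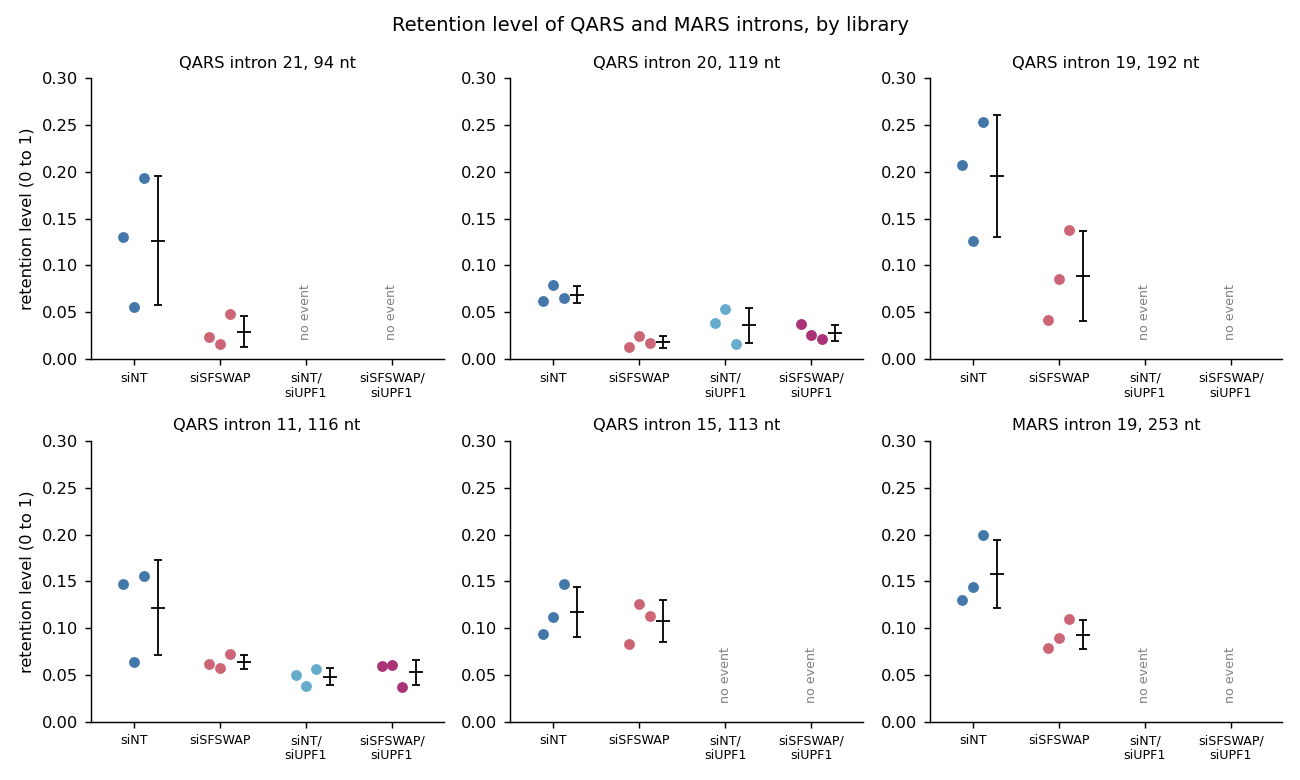
Retention level (vertical axis) of introns of QARS and MARS, with 1 point per library and the mean and SD as bars, n = 3. Introns 20 and 21 of QARS and intron 19 of MARS lie lower in siSFSWAP than in siNT, and the groups overlap at intron 15 of QARS. Where no event is marked, the intron was not among those tested with UPF1 siRNA.

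With UPF1 siRNA 0 of 33 introns were called, beside 3.57% of all, with 2 at an unadjusted p under 0.05. Introns 19 and 21 of QARS and 19 of MARS are not among the introns tested there. QARS intron 20 was then at 0.0383, 0.0537 and 0.0157 without and 0.0376, 0.0254 and 0.0212 with SFSWAP siRNA, which overlap (log2 odds ratio -0.30, SE 0.62, adjusted p = 0.895). UPF1 knockdown called 0 of 15 introns in siNT cells, beside 0.0659%, and 0 of 15 in siSFSWAP cells, beside 0.166%, with 0 and 1 at an unadjusted p under 0.05. The difference of SFSWAP effects was called at 0 of 16, beside 0.0291%, with 0 at an unadjusted p under 0.05. limma on the log2 odds called 0 in each of these.

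The reads of a gene, summed over its skipped exon events present in both tables and given per 1000000 such reads, stand in for its mRNA level here. Under TG 6 of 30 tested synthetase genes were called by limma, beside 12% of all genes. QARS and CARS2 rose (2 genes, background 7.35%) and IARS, WARS, SARS and TARS fell (4 genes, background 4.67%). The median log2 difference was -0.21 over the 30 genes and 0.04 over all genes.

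QARS had 66.5, 127 and 53.4 reads per 1000000 in siNT and 260, 250 and 204 in siSFSWAP, well apart (log2 difference 1.61, SE 0.26, adjusted p = 0.0014). With UPF1 siRNA it had 66.2, 84.0 and 139 against 163, 175 and 204, again without overlap, and was not called (log2 difference 0.96, adjusted p = 0.0799). The siNT library with the most QARS reads, listed 2nd, is also the one with the highest exon 9 inclusion and the lowest retention of intron 21, while its retention of intron 20 is the highest of the group. The siNT/siUPF1 library with the most, listed 3rd, likewise has the highest exon 9 inclusion of its group. These measures come partly from the same reads.

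IARS had 419, 368 and 408 reads per 1000000 in siNT and 192, 230 and 181 in siSFSWAP (log2 difference -0.99, SE 0.14, adjusted p = 0.000783). It had 430, 364 and 304 in siNT/siUPF1 and 237, 197 and 241 in siSFSWAP/siUPF1, and was the 1 gene of 30 called there (log2 difference -0.69, adjusted p = 0.0254), beside 1.01% of all genes and 0.865% called lower. Neither comparison had overlapping groups. The UPF1 background call was lost without any 1 of those libraries except the siNT/siUPF1 library listed 3rd, at adjusted p of up to 0.111, and with libraries scaled by the median of ratios (0.0709). Without that library 3 genes were called there, and 2 without the siNT library listed 2nd. WARS, the tryptophanyl-tRNA synthetase, fell by 0.62 on the log2 scale under TG, SARS by 0.55 and TARS by 0.50, and CARS2, the mitochondrial cysteinyl-tRNA synthetase, rose by 0.69 (adjusted p between 0.0182 and 0.0211). The calls of QARS and IARS held without any 1 library. Without the siSFSWAP library listed 2nd, or the siNT library listed 1st, WARS, SARS, TARS and CARS2 were all lost, at adjusted p of up to 0.107 and 0.0753, and 2 genes remained called.

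UPF1 knockdown in siNT cells called 3 of 30 genes, beside 10.8% of all. RARS2, the mitochondrial arginyl-tRNA synthetase, rose (background 8.48% higher), from 61.1, 78.5 and 78.3 to 163, 160 and 128 reads per 1000000 (log2 difference 1.04, SE 0.15, adjusted p = 0.000936). The groups lay apart. FARSA, the other phenylalanyl subunit, and TARS fell (background 2.35% lower), by 0.49 and 0.46 on the log2 scale. Both were lost without the siNT library listed 1st or 2nd or the siNT/siUPF1 library listed 2nd or 3rd, at adjusted p of up to 0.163, and 1 gene remained called. The median log2 difference was 0.00 over the 30 genes and 0.11 over all genes. With libraries scaled by the median of ratios these became -0.11 and 0.00, 1 synthetase gene was called higher and 4 lower, and the calls over all genes went from 686 higher and 190 lower to 453 and 383. In siSFSWAP cells 0 of 30 genes were called, beside 0.0124%, with 3 at an unadjusted p under 0.05. The difference of SFSWAP effects was called by limma at 0 of 30, beside 0% of all genes, with 2 at an unadjusted p under 0.05.

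**Figure D5:**
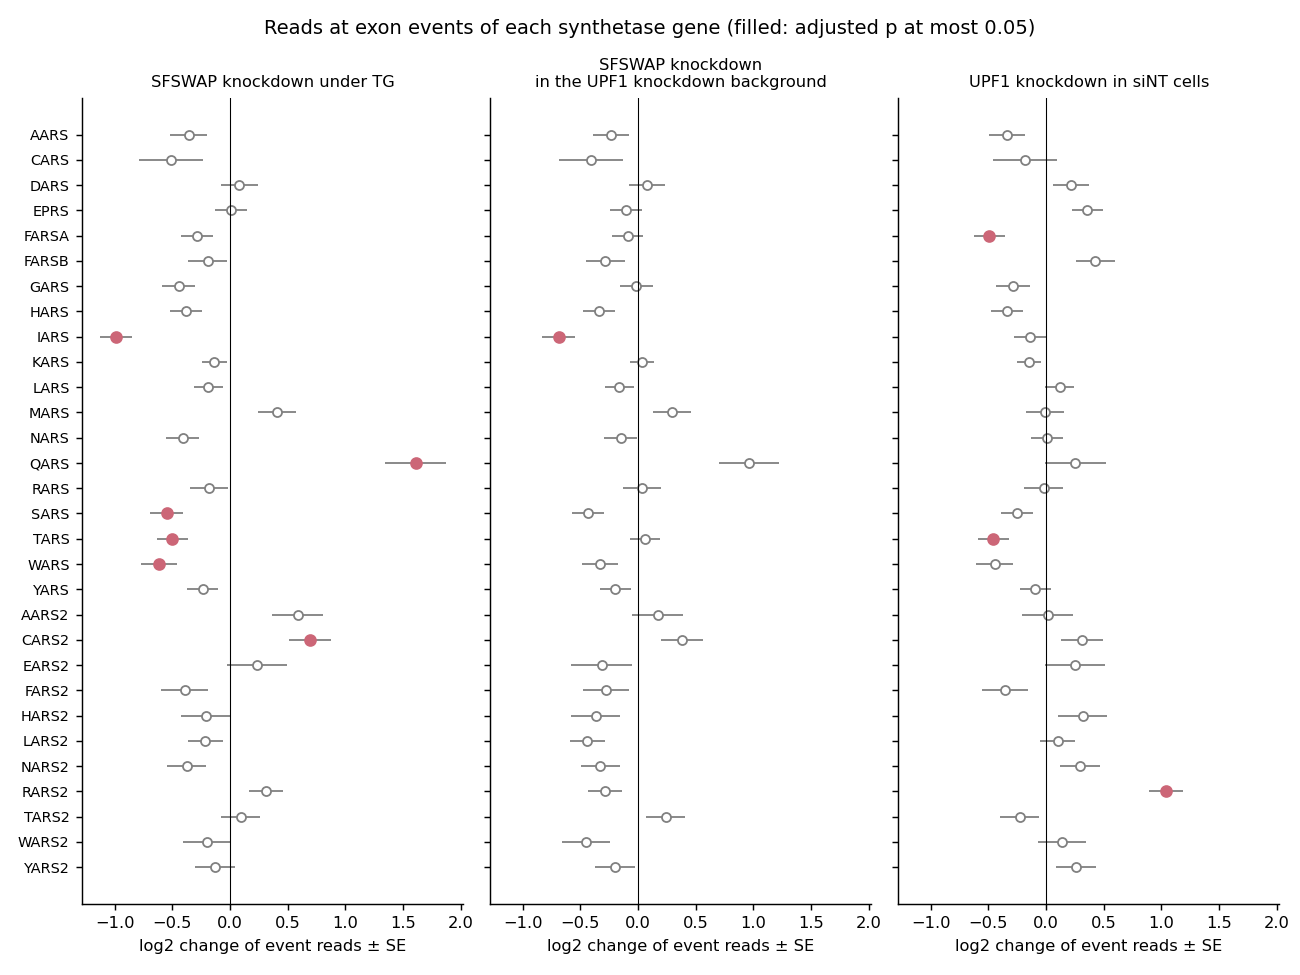
Log2 difference in reads per 1000000 of the synthetase genes by comparison, with 1 point per gene and the SE as bars. QARS rises and IARS falls from siNT to siSFSWAP, and RARS2 rises from siNT to siNT/siUPF1.

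Genes that work beside the synthetases were followed from a list of 12 charging partners, among them complex scaffolds, amidotransferase subunits and proofreading enzymes. Under TG 1 of 9 tested rose, the deacylase DTD1 by a log2 difference of 0.52 (adjusted p = 0.0344), and none fell, where 7.35% of all genes were called higher. After UPF1 knockdown in siNT cells 2 of 9 rose, PSTK by 0.81 and AARSD1 by 0.68, where 8.48% of all genes were called higher. In a list of 15 genes of the amino acid response, the ATF4 programme that raises many synthetase genes when amino acids run short, 4 of 11 fell under TG and none rose, where 4.67% of all genes were called lower. DDIT3 fell by 2.07 on the log2 scale (adjusted p = 0.00579), the amino acid transporter subunit SLC3A2 by 1.29, the transcription factor ATF3 by 1.00 and the tRNA exporter XPOT by 0.65. The medians of the 2 lists were 0.04 and -0.51, beside 0.04 over all genes, and in the UPF1 background neither list had a call. ATF4 itself, named for the programme, was not called, at a log2 difference of -0.36 under TG (adjusted p = 0.251) and -0.83 in the UPF1 background (adjusted p = 0.0513).

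Skipped exons of these lists were called too. Among the partners 2 of 21 events were called under TG, both in PSTK, and 4 of 35 in the UPF1 background. Exon inclusion of the folate enzyme SHMT2, of the amino acid response list, rose in both, from a mean of 0.769 to 0.954 under TG and from 0.714 to 0.938 in the UPF1 background. The control libraries were spread widely, at 0.749, 0.898 and 0.659 in siNT against 0.950, 0.958 and 0.952 in siSFSWAP. With UPF1 siRNA the levels were 0.738, 0.578 and 0.827 against 0.913, 0.950 and 0.951. In the amino acid response list 8 of 50 and 1 of 32 events were called. Over all genes these shares were 12% under TG and 7.52% in the UPF1 background. The calls in both lists, of genes and of exons, were not examined under the alternatives or without 1 library.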

How the data were processed

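Trimming by the authors used cutadapt 1.9.1, and alignment STAR 2.7 against RefSeq GRCh38.p8 with predicted decoy exons added. They ran rMATS with junction and exon body reads, once without and once with UPF1 siRNA. The deposited tables hold, per skipped exon or retained intron, the inclusion and skipping read counts of the 3 libraries of each group joined in 1 cell, and the effective length of each form. Columns with the authors' p-values, false discovery rates and inclusion level differences were not used. All 12 libraries fell into 4 groups of 3 by their labels.

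The 36 genes, the partner lists and the tests were chosen with earlier results of these data known. Counts were fitted by quasi-binomial regression with dispersions moderated by squeezeVar of limma 3.58.1 (R 4.3.3, data.table version 1.17.8) and floored at 1. Events needed a mean of 10 reads per library and 10 reads of each form, and the Benjamini-Hochberg adjustment covered all events of all genes. The difference of SFSWAP effects was a Wald test over the 12 libraries. UPF1 comparisons used events at coordinates found in both tables. These come from separate rMATS runs. The paper describes the RNA-seq with UPF1 siRNA after that without it, and the labels name no batch. If these were separate experiments, a difference between them cannot be told apart from UPF1 knockdown. Gene reads were tested by limma on log2(reads per 1000000 + 1) for genes with a mean of at least 50 reads, over 16861387 to 23913801 such reads per library. The added 1 makes fold changes of low genes too small. The fits were tested on simulated data. Intervals and floors, at 3 counts of the total, cover counting error only.

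Named with values are the called exons and introns with the lowest adjusted p (up to 12 per comparison, by the event with the most reads), the called genes (up to 10), the 5 exons and 5 introns with the most reads at siNT levels between 0.1 and 0.9, and up to 4 genes per partner list. Some called forms of LARS, IARS, FARSB and SARS that overlap a named exon fell under this rule but are given without levels. Others are named as chosen after their values were seen. 1 gene of a partner list and some sequences are not reported here. Alternatives were another filter, limma on the log2 odds, no dispersion floor or moderation, 1 event per exon, a minimum difference, other pseudocounts and scaling of the gene reads, and each library left out.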

Additional observations from a re-analysis of the deposited data

How the results depend on the processing

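Skipped exon counts moved with the test and the filter. Under TG the 25 calls became 0 with no filter on reads, 0 with each event's own dispersion, 13 and 16 by limma on the log2 odds with 0.5 and 1 added, and 4 with an added difference of at least 0.2. In the UPF1 background the 21 calls became 0, 0, 0, 3 and 8 under the same alternatives, and the 2 calls for UPF1 knockdown in siNT cells became 0, 0, 0, 0 and 1. The 3 intron calls became 0 under each of the 5. With no filter or with each event's own dispersion, calls over all genes in these 4 comparisons fell to 0 too, except for 2 exons of UPF1 knockdown in siNT cells without a filter. Scaling the gene reads by the median of ratios took the 1 call in the UPF1 background to 0 and the 3 calls for UPF1 knockdown in siNT cells to 5. The cause was not tested. A filter of 30 reads, no dispersion floor and 1 event per exon kept all these counts within 1.5 times, as did the other alternatives for gene reads.

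Leaving out 1 library gave 12 to 21 skipped exon calls under TG, 9 to 23 in the UPF1 background and 0 to 8 for UPF1 knockdown in siNT cells. It gave 2 to 5 intron calls under TG. Gene read calls ran from 2 to 9 under TG, 0 to 3 in the UPF1 background and 1 to 3 for UPF1 knockdown in siNT cells. In the other comparisons, which had 0 calls, all alternatives and omissions gave 0. SFSWAP reads remained 56.5% to 64.3% lower under TG and 52.2% to 66.7% lower in the UPF1 background, and UPF1 reads 66.3% to 74.6% and 61.0% to 70.9% lower. No direction of a called event or gene among the synthetases turned under any alternative or omission. Of the values recomputed for 51 calls of events, 415 remained called and 290 did not, and for the 10 calls of genes 151 and 29.

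No paired analysis was possible because the table columns join the 3 libraries of a group and carry no replicate numbers. Depth limits rare forms most, since many calls rest on fewer than 30 reads of one form.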
